A study of Homo sapiens with 6 samples.

Results

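The comparison described here sets the colorectal cancer cell line HT29 against libraries labelled SW480, another colorectal cancer line, each under a BZW2 hairpin and under a control hairpin. It used 4 of the 6 libraries of the series, chosen by their cell line labels: 2 from HT29 and 2 labelled SW480. In each line 1 library came from cells with stable BZW2 shRNA and 1 from cells with non-targeting shRNA, delivered by lentivirus and kept under 1 µg/ml puromycin, so that all 4 libraries carried a viral hairpin and puromycin selection. The remaining 2 libraries were from HCT116, a further colorectal line, and served here as a check of identity. Pairs of values given for a line are with BZW2 shRNA and with non-targeting shRNA.

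Epithelial cancer lines of the colon differ in how much of the colonic programme they keep. Intestinal transcription factors such as CDX2, HNF4G and KLF5 drive enterocyte and secretory genes, glycosyltransferases build the mucin-type sugars of the cell surface, and E-cadherin with the claudins holds neighbouring cells together. Lines that lose part of this programme often carry contractile, matrix and motility genes instead. HT29 is known for a retained capacity to form enterocyte and goblet cells. SW480 is known for weak cell contacts and for high vimentin.

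Reads over listed genes ranged from 8968603 to 9317444 in HT29 and from 5078001 to 6105605 in the libraries labelled SW480. Levels are CPM, read counts relative to library size, scaled over the 4 libraries, and each difference is HT29 minus SW480-labelled on the log2(CPM + 1) scale, which understates the change of low genes. BZW2, the target of the hairpin, was low under that hairpin in both lines, at 15.2 CPM with its hairpin and 176 CPM with the control hairpin in HT29, and at 12.1 and 91.6 CPM in the libraries labelled SW480. The hairpin libraries held 8.64% of control in HT29 and 13.2% in the SW480-labelled pair. BZW2 differed between the lines by 0.62 (limma adjusted p = 0.107). Its paralog BZW1 had 412 and 307 CPM in HT29 and 591 and 666 CPM in the libraries labelled SW480.

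The line labels of the SW480 and HCT116 libraries did not match how near the libraries lay to each other. Over the 10875 genes listed in all 3 lines, the control library labelled SW480 and the HCT116 control library had a Spearman correlation of 0.976 across genes, and 1.52% of genes lay at least 2-fold apart. The 2 libraries labelled SW480 correlated at 0.938 with each other, with 10.1% of genes at least 2-fold apart, and the 2 HT29 libraries at 0.9505 with 8.69%. The HCT116 BZW2 hairpin library correlated at only 0.650 with its own control, with 53.7% of genes at least 2-fold apart, whereas the SW480-labelled BZW2 library correlated at 0.937 with the HCT116 control, with 10.1%. HT29 and the SW480-labelled library correlated at 0.828 under the control hairpin, with 26.5% of genes 2-fold apart. The SW480-labelled control was not within sampling noise of the HCT116 control (mean chi-square of 13.5 per gene). Vimentin (VIM) had 12.9 and 15.9 CPM in the libraries labelled SW480 and was blank in HT29 and in HCT116. Why the libraries labelled SW480 lay so near to the HCT116 control was not tested, nor was whether any label is off. Every result below rests on the SW480-labelled libraries, so they are called by their label throughout.

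Of 11082 genes listed in both lines and tested with limma, 1703 (15.4%) were higher and 1756 (15.8%) lower in HT29 at a Benjamini-Hochberg adjusted p under 0.05. At least 2-fold differences in the same direction under both hairpins were seen for 888 genes (8.01%) higher and 991 (8.94%) lower in HT29. The median difference over all genes was 0.01. Hairpin entered the fit as a block, and the 1 residual degree of freedom was how far the line difference moved between hairpins. With a median of 9.26 prior degrees of freedom beside it, the spread behind each p-value was estimated mostly from other genes. Nothing in the labels speaks of separate cultures, so p-values speak only of these libraries. Without the SW480-labelled control library 670 genes were higher and 629 lower, and without the SW480-labelled BZW2 library 523 and 688. Without the HT29 control library the counts were 608 and 837, and without the HT29 BZW2 library 687 and 700. With the deposited values taken as they stood, whose size factors were set per line, 4902 were higher and 813 lower.

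**Figure D1:**
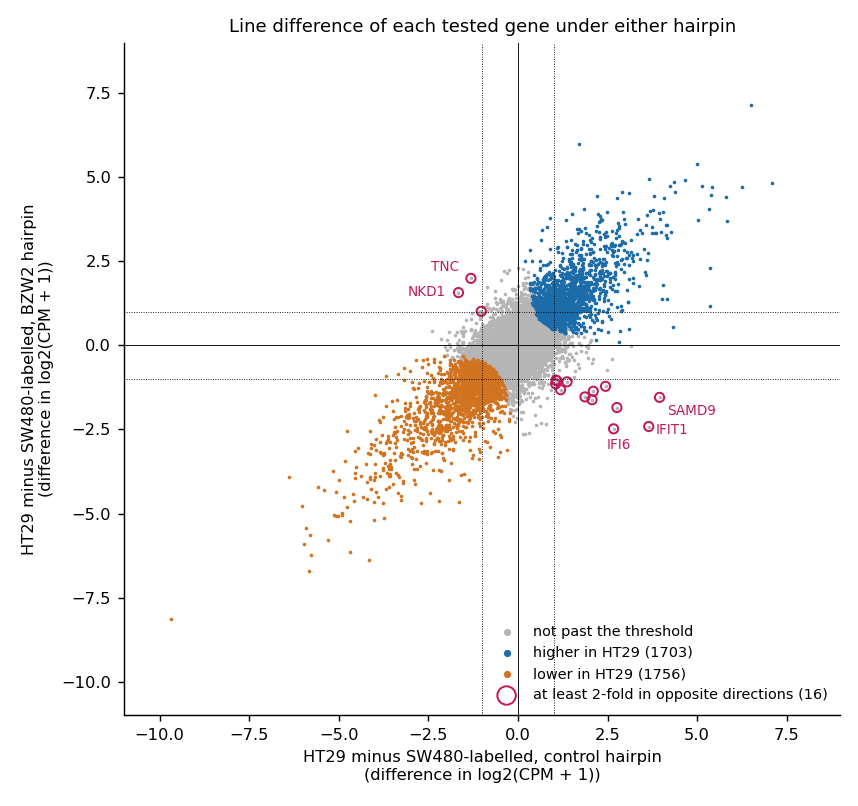
Difference in log2(CPM + 1) between HT29 and the libraries labelled SW480 for each tested gene, under the control hairpin (horizontal) and the BZW2 hairpin (vertical). Blue points are the 1703 genes higher and orange points the 1756 genes lower in HT29, dotted lines mark 2-fold, and rings mark the 16 genes at least 2-fold apart in opposite directions.

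Genes higher in HT29 were led by a glycan-branching enzyme. GCNT3, the core 2 and core 4 branching enzyme of mucin-type O-glycans (ENSG00000140297, chr15:59594875-59640239, GRCh38), had 476 and 486 CPM in HT29, against 2.36 and 4.42 CPM in the libraries labelled SW480. Its difference was 6.82 ± 0.27 (moderated SE, 2 libraries a line), with a limma adjusted p of 8.49e-07. Each SE given here is the moderated SE of limma, which draws mostly on the spread of other genes. It can therefore understate a gene's own spread. The steroid and drug oxidase gene CYP3A5 (chr7:99648194-99680026) had 79.2 and 337 CPM in HT29, against 2.05 and 3.41 CPM. For both genes the HT29 values and those of the libraries labelled SW480 did not overlap, which follows from their choice by size.

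The remainder of the 15 named by size had varied roles. CEACAM1, an adhesion receptor of epithelia, had 88.8 and 112 CPM in HT29, against 2.36 and 2.21 CPM in the libraries labelled SW480 (difference 4.94). The membrane carbonic anhydrase CA12 had 127 and 340.2 CPM in HT29 and 6.61 and 7.43 CPM in the SW480-labelled pair (4.70). The sialyltransferase ST3GAL1 (4.60), the hexokinase-like HKDC1 (4.93) and the protease inhibitor SERPINA1 (4.48) were also higher. ERAP2, which trims peptides for MHC class I, stood at 149.9 and 200.1 CPM in HT29, against 6.14 and 2.61 CPM (5.10). SNTB1, a syntrophin, and APOL6, an apolipoprotein L, differed by 5.05 and 5.20. ADAMTS6, AMIGO2, FRY and BHLHE41, a secreted protease, an adhesion protein, a furry homologue and a circadian repressor, differed by 4.79, 4.76, 4.49 and 4.38. IFI27 is described with the interferon genes.

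Genes lower in HT29 were led by AKAP12, a scaffold for protein kinase A (ENSG00000131016, chr6:151239999-151358557). It had 17.6 and 6.77 CPM in HT29, against 5195 and 6421 CPM in the libraries labelled SW480. Its difference was −8.91 ± 0.35 (moderated SE, limma adjusted p = 8.49e-07). Taken by hairpin it was −8.12 with the BZW2 hairpin and −9.69 with the control hairpin. PRKACB, a catalytic subunit of that kinase, had 4.35 and 6.43 CPM in HT29 and 559.5 and 425 CPM in the SW480-labelled pair (−6.28). Both genes were separated by line under either hairpin, which follows from their choice by size.

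The other genes lower in HT29 had varied roles. WWTR1, which encodes the YAP partner TAZ, had 1.72 and 1.11 CPM in HT29, against 160.5 and 132 CPM in the libraries labelled SW480 (−5.94). LGALS1, galectin 1, had 17.3 and 10.3 CPM in HT29, against 782 and 683 CPM (−5.67). OSMR, a subunit of the oncostatin M receptor, had 0.344 and 2.11 CPM in HT29, against 73.3 and 122 CPM (−5.55). ALDH1A3, a retinaldehyde dehydrogenase, had 15.2 and 29.5 CPM in HT29, against 1362 and 543 CPM (−5.27). PDP1, a pyruvate dehydrogenase phosphatase, differed by −5.72, the tubulin gene TUBB6 by −5.41, the dermatan sulfate epimerase DSE by −5.40, the mitophagy receptor BNIP3 by −5.16 and clusterin (CLU) by −5.09. HYCC1, SYTL3 and STMN3 differed by −5.08, −5.04 and −4.98. Reads of tubulin genes may be shared with near-identical copies.

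Of the 30 genes named by size, 27 had a value in HCT116. In all 27 the HCT116 control level lay nearer to the SW480-labelled libraries than to HT29. The genes were chosen for their difference between HT29 and the SW480-labelled libraries, and the share over all genes was not taken. The count is therefore not an independent check of identity. LGALS1 had 537 CPM and CDH3 183 CPM in the HCT116 control on a scale set over 6 libraries.

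**Figure D2:**
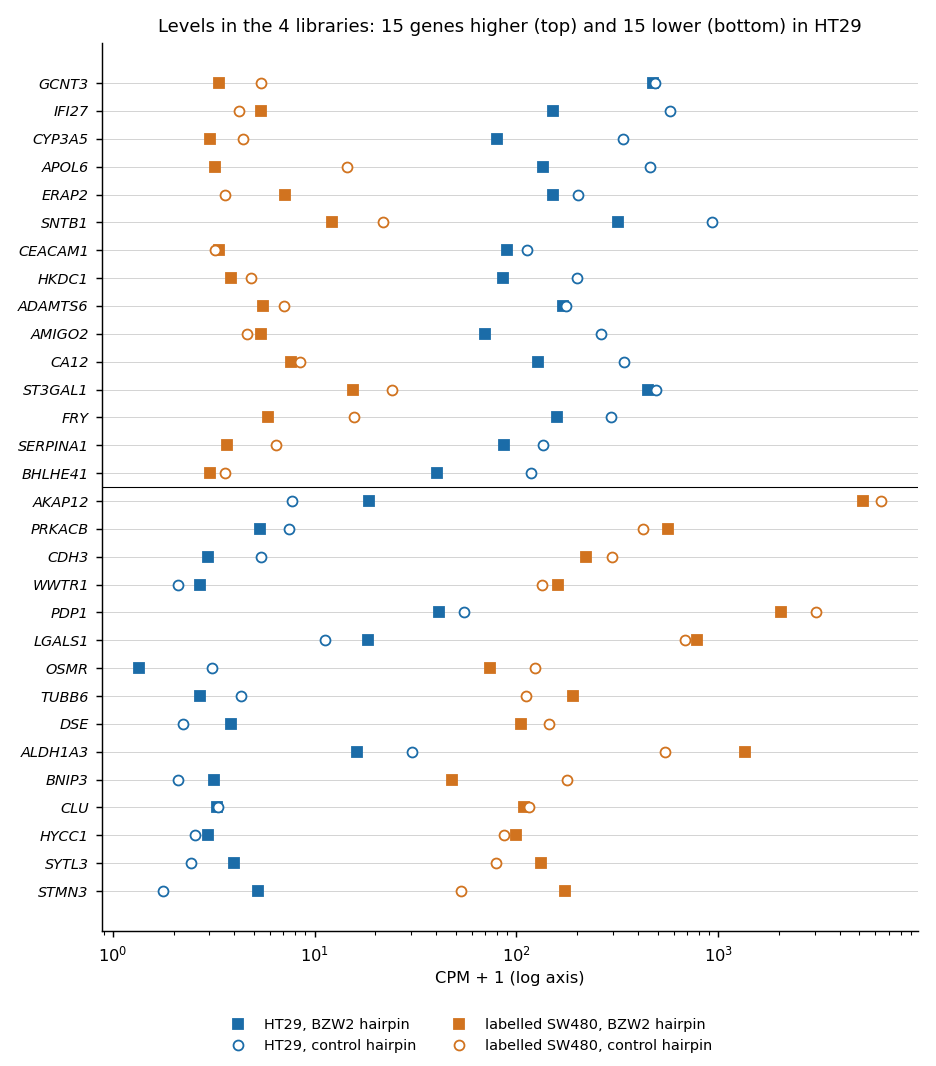
CPM + 1 on a log axis in each of the 4 libraries for the 15 protein-coding genes of largest difference in either direction; squares are BZW2 hairpin and open circles control hairpin libraries. In every one of these 30 genes both HT29 libraries lie on 1 side of both libraries labelled SW480. The genes were chosen for large differences of the same sign under both hairpins, so this separation follows from the choice.

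The cadherin genes of epithelial contacts differed in opposite directions between neighbours on chromosome 16. CDH1, E-cadherin (chr16:68737225-68835548), had 290.5 and 502 CPM in HT29, against 57.1 and 178 CPM in the libraries labelled SW480, a difference of 1.91 ± 0.28 (SE; limma adjusted p = 6.36e-04). CDH3, P-cadherin (chr16:68636189-68722616), lies just upstream and went the other way, with 1.95 and 4.44 CPM in HT29 and 221 and 297 CPM in the SW480-labelled pair, a difference of −6.00 ± 0.27. Neither gene's values overlapped between the lines, and CDH3 was among the genes chosen by size.

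Of 42 tested members of the epithelial junction and identity list, 14 (33.3%) were higher and 4 (9.52%) lower in HT29. Of all genes 15.4% were higher and 15.8% lower. The other 24 members did not pass. The list median was 0.55. The claudin CLDN3 (2.33), the keratin KRT80 (2.57), the matriptase inhibitor SPINT1 (1.78) and the epithelial transcription factors GRHL2 (1.82) and OVOL2 (1.61) were higher. Desmosomal DSG2 (−1.22) and DSP (−1.12) and the keratin KRT19 (−1.04) were lower in HT29, and KRT7 was listed in HT29 only. EPCAM had 484 and 572 CPM in HT29, against 283 and 354 CPM in the libraries labelled SW480, and did not pass (limma adjusted p = 0.0576).

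Genes of the mesenchymal list were mostly lower in HT29, with a median of −1.44. Of 15 tested, 10 (66.7%) were lower and 3 (20%) higher, against 15.8% and 15.4% of all genes. Calponin 3 (CNN3) had 9.63 and 4.10 CPM in HT29, against 194 and 243 CPM in the libraries labelled SW480 (−4.89). The receptor kinase AXL had 1.03 and 1.33 CPM in HT29, against 44.9 and 33.7 CPM (−4.20). Fibronectin (FN1) differed by −2.48. The 3 higher members were MYLK, a myosin kinase (1.62), the growth factor PDGFC (1.44) and the actin linker MSN (1.21). A further 10 members, VIM and the EMT transcription factor ZEB1 among them, were listed in the SW480-labelled libraries only, and TAGLN in HT29 only.

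The matrix genes among them are also markers of fibroblasts. Of 10 fibroblast markers COL1A1 alone had a row, at 1.57 and 5.22 CPM in the libraries labelled SW480 and blank in HT29. Of 10 leukocyte and 8 endothelial markers, 0 had a row. Of 10 colonic epithelial markers 4 were tested, namely CDX2, which was lower in HT29, and EPCAM, KRT8 and KRT18, which did not pass. Of 8 hepatocyte markers SERPINA1 alone had a row, and of 8 neuroendocrine markers SYP and SCG2 did. The part of other cell types in the matrix genes was not tested. In bulk RNA, fewer cells of a type and less RNA per cell cannot be told apart.

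Of the 13021 identifiers with a row, HT29 listed 11411, the libraries labelled SW480 12184 and HCT116 11953. Genes such as VIL1, LGALS4, MUC2 and HNF4A have no row and were not analysed here, so the intestinal lists are short. Of 13 tested intestinal transcription factors, 7 (53.8%) were higher and 1 (7.69%) lower in HT29, against 15.4% and 15.8% of all genes. Their median was 0.71. HNF4G, a nuclear receptor of the gut, had 44.8 and 66.9 CPM in HT29, against 6.93 and 4.62 CPM in the libraries labelled SW480 (3.06). MYB (2.23), KLF5 (2.20), PPARG (2.12), GATA6 (1.72), FOXA3 (1.65) and ELF3 (0.71) were also higher. ELF3 values overlapped between the lines, and its difference ran from 0.14 to 1.29 with 1 library left out. CDX2, the colonic homeobox factor, had 2.52 and 4.44 CPM in HT29, against 11.6 and 9.84 CPM, and was the lower member (−1.42).

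Enterocyte and brush border genes split, with a median of 1.25. Of 12 tested, 6 (50%) were higher and 4 (33.3%) lower in HT29, against 15.4% and 15.8% of all genes. Beside CEACAM1 and CA12, the chloride cotransporter SLC12A2 had 1305 and 1049 CPM in HT29, against 137 and 188 CPM in the libraries labelled SW480 (2.86). The aquaporin AQP3 (2.76), the brush border peptidase DPP4 (2.61) and the scaffold USH1C (2.05) were higher. Ezrin (EZR), the microvillus linker, had 263 and 371 CPM in HT29, against 4559 and 4135 CPM (−3.79), and CA2 (−1.93), SLC26A2 (−1.58) and LGALS3 (−0.95) were lower. ESPN and ABCB1 were listed in the SW480-labelled libraries only. Of 46 goblet and secretory genes 40 had no row, and 3 were tested. CREB3L4 (1.03) and SYTL2 (1.25) were higher in HT29, which is 66.7% of those tested, against 15.4% of all genes. Of the 3, 0 were at least 2-fold higher under both hairpins. With 1 library left out, the difference ran from 0.59 to 1.46 for CREB3L4 and from 0.90 to 1.59 for SYTL2. MUC3A, GFI1 and SCG2 were listed in the SW480-labelled libraries only.

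Glycosyltransferases differed in both directions. Of 27 tested, 11 (40.7%) were higher and 8 (29.6%) lower in HT29, against 15.4% and 15.8% of all genes. Besides GCNT3 and ST3GAL1, ST3GAL4 (3.03), GALNT14 (2.56), the fucosyltransferase FUT4 (2.34) and GALNT3 (2.24) were higher. FUT8, which adds core fucose to N-glycans, had 11.1 and 7.32 CPM in HT29, against 89.7 and 106 CPM in the libraries labelled SW480 (−3.29). GALNT5 (−3.10), GALNT1 (−2.49) and GCNT1, the relative of GCNT3 that makes core 2 branches (−1.76), were lower, and B3GNT7 was listed in the SW480-labelled libraries only. GCNT3 and GCNT1 differed in opposite directions.

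Tested HOX genes, which carry positional identity, leaned to HT29. Of 12 tested, 7 (58.3%) were higher in HT29, against 15.4% of all genes. The other 5 did not pass, and the median was 1.28. HOXB9 had 70.8 and 70.1 CPM in HT29, against 8.03 and 9.84 CPM in the libraries labelled SW480 (2.85), and HOXA5 (2.35), HOXB3 (2.27) and HOXA13 (1.98) were also higher. HOXA3, HOXC6 and HOXA7 were listed in HT29 only, with lower bounds on the fold of 3.58, 1.69 and 0.86. Such bounds, here and for other lists, hold only if a blank gene had at most 20 reads over the 2 libraries of a line. The HOXA7 bound does not show that it was higher at all. HOXD8 and HOXC9 were listed in the SW480-labelled libraries only, at least 10.6-fold and 2.58-fold lower in HT29.

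**Figure D3:**
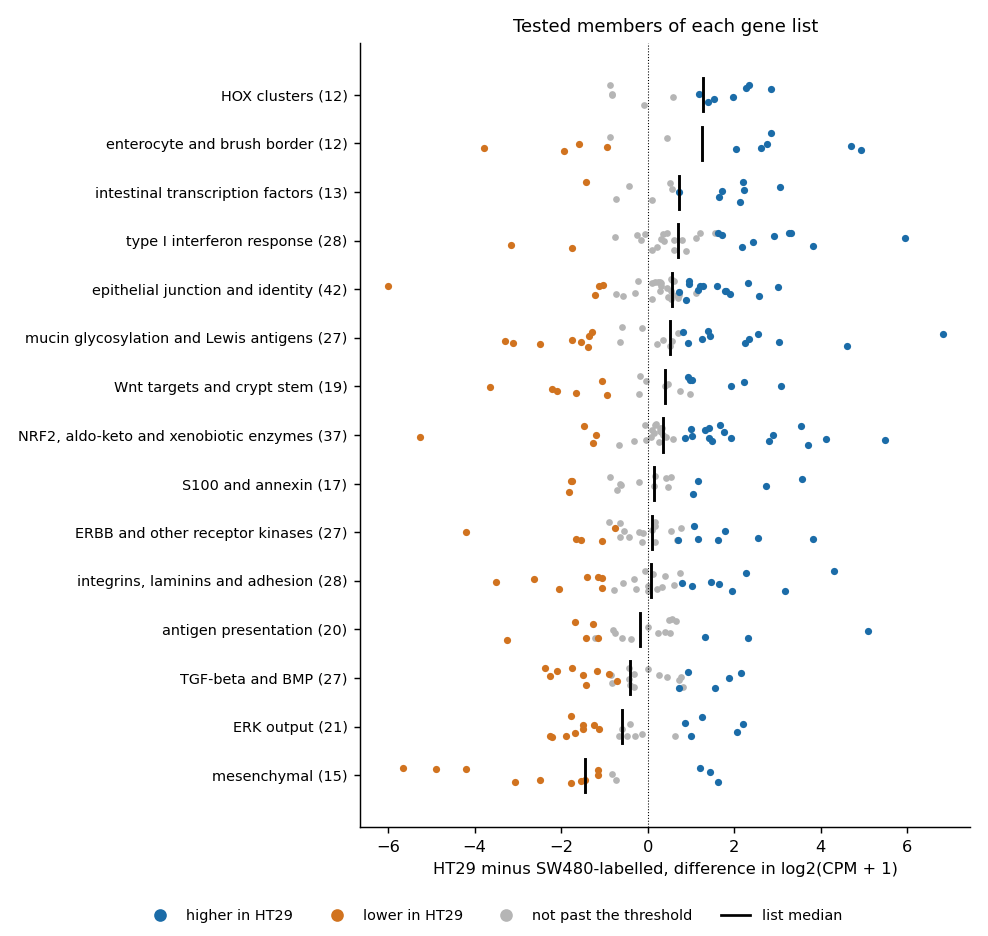
Difference in log2(CPM + 1) between HT29 and the libraries labelled SW480 for the tested members of 15 lists with at least 10 tested members, ordered by list median (black bar), with the number tested in brackets. Medians run from 1.28 for HOX genes to −1.44 for mesenchymal genes, against 0.01 for all genes (dotted line).

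Signalling lists were mixed. Among 21 ERK output genes 5 (23.8%) were higher and 9 (42.9%) lower in HT29, against 15.4% and 15.8% of all genes. The phosphatases that restrain MAP kinases were lower, DUSP4 at 57.1 and 74.98 CPM in HT29, against 315 and 323 CPM in the libraries labelled SW480 (−2.27), with DUSP5 (−1.49) and DUSP6 (−1.25). DUSP5 overlapped between the lines, and with 1 library left out its difference ran from −2.66 to −0.32 and that of DUSP6 from −1.71 to −0.79. The Sprouty-type inhibitors SPRY1 (2.20), SPRY2 (2.07) and SPRED1 (1.26) were higher. CCND1, cyclin D1, was lower in HT29 by 2.21 on the log2 scale, with 175 and 179.8 CPM, against 935 and 727 CPM. Negative regulators of ERK lay on both sides. PLAU (at least 69.7-fold lower in HT29), EPHA4 and LZTS1 were listed in the SW480-labelled libraries only.

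Of 19 tested Wnt target and crypt genes 6 (31.6%) were higher and 6 (31.6%) lower in HT29, against 15.4% and 15.8% of all genes. A further 5, NOTUM, VSNL1, TNFRSF19, MSI1 and TCF7L1, were listed in the SW480-labelled libraries only, with bounds from 1.72 to 11.2-fold, and 0 in HT29 only. The Wnt antagonist DKK1 had 28.1 and 28.7 CPM in HT29, against 493 and 272 CPM in the libraries labelled SW480 (−3.64). LRIG1, which restrains ERBB receptors (3.07), and the R-spondin-regulated ligases ZNRF3 (2.22) and RNF43 (0.93) were higher, with AXIN2 (1.02). Of 27 ERBB and other receptor genes 7 (25.9%) were higher and 5 (18.5%) lower, against 15.4% and 15.8% of all genes, and FGFR1, RET, ROR2, LTK and DDR2 were listed in the SW480-labelled libraries only. ROR1 (3.83), ERBB3 (2.55), IGF1R (1.63) and ERBB2 (1.07) were higher, and AXL, MERTK (−1.53) and the ligand AREG (−1.06) were lower. AREG overlapped between the lines, and with 1 library left out its difference ran from −1.96 to −0.16 and that of MERTK from −2.16 to −0.90.

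Of 27 TGF-beta and BMP genes 5 (18.5%) were higher and 9 (33.3%) lower in HT29, against 15.4% and 15.8% of all genes. The higher count is thus near the share over all genes. SMAD4, the shared mediator of both branches, had 15.2 and 32.2 CPM in HT29, against 103 and 139.5 CPM in the libraries labelled SW480 (−2.38). TGFBR1 (−1.50) and ID1 (−1.42) were lower as well, while TGFBR2 (1.55) and the SMAD inhibitors SMAD6 (2.15) and SKIL (1.89) were higher. The receptor pair TGFBR1 and TGFBR2 differed in opposite directions. ID3 (at least 46.6-fold lower in HT29), BMP7, SMAD9 and INHBB were listed in the SW480-labelled libraries only.

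Of 37 tested drug and redox enzymes 16 (43.2%) were higher and 4 (10.8%) lower in HT29, against 15.4% and 15.8% of all genes. Their median was 0.36. AKR1C3, an aldo-keto reductase, had 134 and 88.7 CPM in HT29, against 5.19 and 5.42 CPM in the libraries labelled SW480 (4.12). The export pumps ABCG2 (3.71) and ABCC3 (3.55), the cystine transporter SLC7A11 (2.81) and AKR1C1 (2.89) were higher. AKR1C genes are close copies, and their reads may be split between them. NQO1, a classical NRF2 target, had 1038 and 664 CPM in HT29, against 791 and 552 CPM, and did not pass (limma adjusted p = 0.423). ALDH1A3, ALDH1B1 (−1.46) and HMOX1 (−1.27) were lower. The export pump ABCC2 (at least 86.5-fold lower in HT29), AKR1B1 (at least 45.6-fold lower), GSTM4 and CBR3 were listed in the SW480-labelled libraries only, and GPX3 and AKR1C2 in HT29 only.

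The line difference of the interferon genes moved with the hairpin in these 4 libraries. Interferon-stimulated genes are switched on through transcription factors that bind a paired TTTC element in their promoters. Over both hairpins 9 of 28 tested members (32.1%) were higher and 2 (7.14%) lower in HT29, against 15.4% and 15.8% of all genes. The median difference was −0.42 under the BZW2 hairpin and 2.47 under the control hairpin, whereas over all genes it was 0.00 under either. Under the BZW2 hairpin 10 of the 28 lay above 0, and under the control hairpin 24 did, against 50.2% and 49.8% of all genes.

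IFI27, an interferon-induced mitochondrial protein (chr14:94104836-94116698), kept its direction, with 151 and 576 CPM in HT29, against 4.41 and 3.21 CPM in the libraries labelled SW480. Its difference was 5.96 ± 0.44 (moderated SE, limma adjusted p = 1.24e-05). Taken by hairpin it was 4.81 with the BZW2 hairpin and 7.10 with the control hairpin. BST2, which tethers budding virions, had 126 and 207 CPM in HT29, against 11.6 and 19.9 CPM (3.32). MX1 (3.82), IFI44 (3.28), PARP14 (2.92) and IRF7 (2.173) were higher as well. HERC5, the ligase for ISG15, was lower, with 1.83 and 11.4 CPM in HT29 and 71.0 and 37.7 CPM in the SW480-labelled pair (−3.15), and so was IFITM3 (−1.75).

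IFIT1, which binds viral RNA ends, instead changed sides. Under the BZW2 hairpin it had 19.6 CPM in HT29, against 109 CPM in the library labelled SW480. Under the control hairpin it had 253 CPM in HT29, against 19.3 CPM. IFI6 had 33.6 CPM in HT29 and 192 CPM in the SW480-labelled library under the BZW2 hairpin, but 337 and 52.2 CPM under the control hairpin. In all, 16 of 11082 genes (0.144%) were at least 2-fold apart in opposite directions under the hairpins, and 8 of them were on the interferon list, which is 28.6% of its tested members. The promoters of 4 interferon genes that held matches, 2 that kept a direction and 2 that changed sides, are given here. Each line gives the 250 bases upstream of a RefSeq transcript start (GRCh38.p14), with matches to TTTCNNTTTC or its reverse complement GAAANNGAAA in capitals, where matches may overlap each other.
IFI27, chr14:94110486-94110735, plus strand: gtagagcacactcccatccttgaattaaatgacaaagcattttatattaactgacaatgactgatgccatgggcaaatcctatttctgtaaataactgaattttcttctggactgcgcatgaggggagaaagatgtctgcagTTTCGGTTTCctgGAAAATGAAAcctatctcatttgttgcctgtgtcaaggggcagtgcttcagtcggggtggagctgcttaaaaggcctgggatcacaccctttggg
HERC5, chr4:88456869-88457118, plus strand: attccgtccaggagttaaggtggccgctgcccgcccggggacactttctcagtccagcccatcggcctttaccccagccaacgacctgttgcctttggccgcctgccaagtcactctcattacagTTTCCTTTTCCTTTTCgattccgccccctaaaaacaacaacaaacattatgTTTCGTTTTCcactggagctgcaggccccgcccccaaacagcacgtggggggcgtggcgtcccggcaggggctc
IFI6, chr1:27672193-27672442, minus strand: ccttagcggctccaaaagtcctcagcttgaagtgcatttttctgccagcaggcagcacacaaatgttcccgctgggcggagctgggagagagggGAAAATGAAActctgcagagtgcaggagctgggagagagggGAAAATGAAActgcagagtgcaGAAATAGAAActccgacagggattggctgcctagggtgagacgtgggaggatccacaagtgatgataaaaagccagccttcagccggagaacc
IFIT1, chr10:89392373-89392622, plus strand: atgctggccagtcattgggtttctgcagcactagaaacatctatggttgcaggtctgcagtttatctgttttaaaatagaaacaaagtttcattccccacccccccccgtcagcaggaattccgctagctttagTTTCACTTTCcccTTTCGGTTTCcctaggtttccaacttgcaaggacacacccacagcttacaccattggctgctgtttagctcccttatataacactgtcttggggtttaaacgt

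Of 21 tested interferon members with a RefSeq promoter, 16 (76.2%) held a match in that window on either strand, against 3.71% of 27305 genes. That share is a property of the list and not a result of the libraries. Among the 13 genes with opposite differences and a promoter, 6 (46.2%) held one. The genes shown, IFI27 and HERC5, which kept their direction, and IFI6 and IFIT1, which changed sides, all carried matches. RIGI, which changed sides, and IRF1, which was higher in HT29, held 0. A match describes the letters and is not a binding site.

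**Figure D4:**
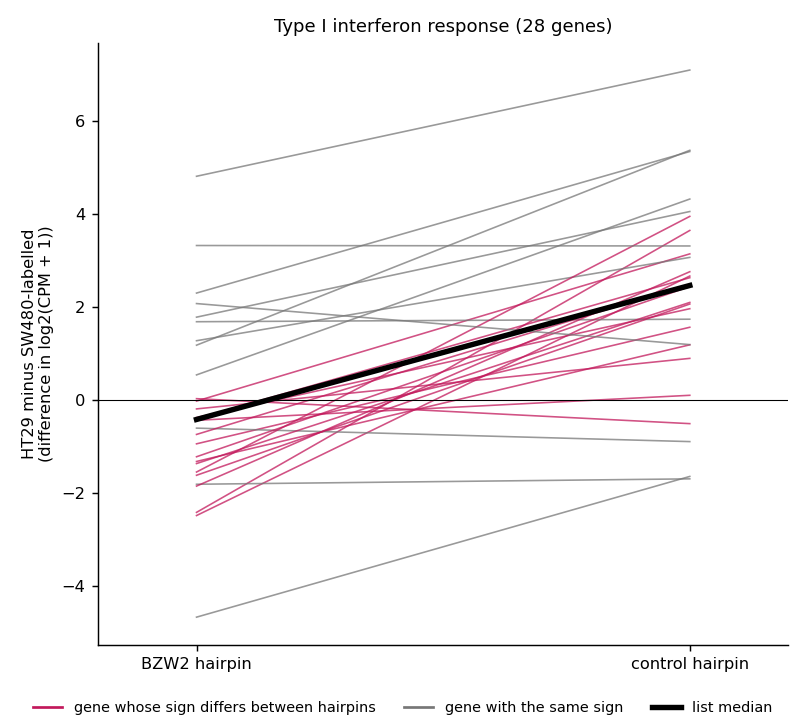
Difference in log2(CPM + 1) between HT29 and the libraries labelled SW480 for each of the 28 tested members of the interferon list, under the BZW2 hairpin and the control hairpin; the thick black line is the list median. The median is −0.42 with the BZW2 hairpin and 2.47 with the control hairpin, and red lines are genes whose sign differs between the hairpins.

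Of 20 tested antigen presentation genes 3 were higher and 5 lower in HT29, where 15.4% and 15.8% of all genes were, so that the higher count is near the share over all genes. HLA-B had 14.1 and 37.8 CPM in HT29, against 193 and 274 CPM in the libraries labelled SW480 (−3.25), and HLA-C differed by −1.69. Beside ERAP2, the immunoproteasome subunit PSMB10 (2.31) and the loading factor TAPBP (1.31) were higher. MICB, HLA-DRA, HLA-DRB1 and HLA-DPA1 were listed in the SW480-labelled libraries only. HLA genes are polymorphic and alike, so the split of their reads is uncertain.

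Adhesion and calcium-binding genes differed in both directions. Of 28 integrins, laminins and related genes 8 (28.6%) were higher and 7 (25%) lower in HT29, against 15.4% and 15.8% of all genes. ITGA1, the collagen-binding alpha 1 integrin, had 177 and 193 CPM in HT29, against 4.72 and 14.3 CPM in the libraries labelled SW480 (4.31), whereas the adhesion molecule ALCAM (−3.51) was lower. ITGA5 (at least 32.8-fold lower in HT29), L1CAM (at least 8.30-fold lower), COL7A1 and ITGA9 were listed in the SW480-labelled libraries only. Of 17 S100 and annexin genes 4 (23.5%) were higher, led by ANXA10 (3.56) and ANXA4 (2.74). ANXA1 (−1.81) and S100A4 (−1.78) were among the 3 (17.6%) that were lower, which is near the share over all genes. S100A3 was listed in the SW480-labelled libraries only. The 2 tested cancer-testis genes, MAGED1 and MAGED2, did not pass, and MAGEA3, MAGEB2 and PRAME were listed in the SW480-labelled libraries only.

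Genes listed in 1 line are given apart. Listed genes held at least 21 reads over the 2 libraries of a line. If a blank gene held at most 20, its level was at most 1.76 CPM in the SW480-labelled pair and 1.13 CPM in HT29. Each fold given for a gene listed in 1 line only, above and below, is a lower bound on that condition. HT29 alone listed 329 genes, of which 93 were at least 2-fold and 12 at least 10-fold higher. The libraries labelled SW480 alone listed 1102, of which 990 were at least 2-fold and 345 at least 10-fold higher. HCT116 listed 100 of the 329 and 921 of the 1102.

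The highest HT29-only genes were the kinase gene ALPK3, with 115 and 137 CPM in HT29 (at least 71.6-fold higher), the exchange factor RASGRF2, with 88.9 and 119.8 CPM (at least 59.3-fold), and AZGP1, a secreted zinc-binding glycoprotein, with 73.2 and 96.7 CPM (at least 48.3-fold). SGK2, CARD9, TMPRSS4, GPR35, SLC4A4 and PLXNA2 were also among the 10, with bounds from 16.03 to 42.5-fold. TMPRSS4 is an epithelial serine protease, and CARD9 an adaptor of innate immunity.

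The highest SW480-only genes were CAV1, the caveolar coat protein, with 584 and 265 CPM in the libraries labelled SW480 (at least 394-fold lower in HT29), PHLDB2, with 440.2 and 327 CPM (at least 347-fold), and the matrix proteoglycan VCAN, with 524 and 137 CPM (at least 314-fold). HLTF, a helicase-like remodeller, had 325 and 356 CPM and the ligand WNT16 243 and 304 CPM. SLC2A3, the glucose transporter GLUT3, had 23.9 and 476 CPM. PCDH7, CD109, TIAM1 and COL12A1 completed the 10. All 10 were listed in HCT116 as well.

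Differences also ran along chromosomes. Among autosomes and the X chromosome the median was lowest on chromosome 8 (−0.56 over 359 genes) and chromosome 14 (−0.47 over 374 genes). On chromosome 8, 150 genes (41.8%) were lower and 54 (15.04%) higher in HT29, against 15.8% and 15.4% of all genes. The higher count there is thus near the share over all genes. The median was highest on chromosomes 20 (0.47), 13 (0.45), 11 (0.41) and 15 (0.40). The 24 mitochondrially encoded genes had a median of −0.75. Of these 24, 7 (29.2%) were lower and 0 higher, against 15.8% and 15.4% of all genes. The same sign was seen in both hairpin pairs on 16 of 23 chromosomes. In windows of 10 Mb with at least 20 genes, the lowest medians among 214 windows were those from 20 to 50 Mb of chromosome 8, at −1.62, −1.33 and −1.21. The highest were at 120 to 130 Mb of the same chromosome (1.07 over 25 genes) and at 150 to 160 Mb of the X chromosome (1.02 over 45 genes). Copy number was not measured here, and its part in these medians was not tested.

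**Figure D5:**
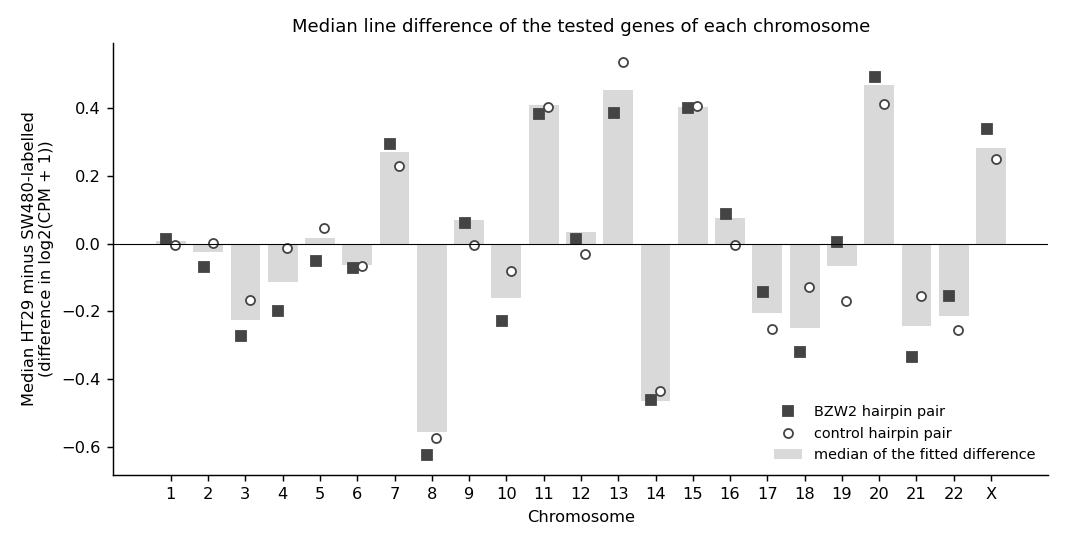
Median difference in log2(CPM + 1) between HT29 and the libraries labelled SW480 over the tested genes of each autosome and the X chromosome, for the fit (bars), the BZW2 hairpin pair (squares) and the control hairpin pair (circles). Chromosomes 8 and 14 lie lowest, at −0.56 and −0.47, and chromosomes 13 and 20 highest, at 0.45 and 0.47.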

How the data were processed

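RNA sequencing had been done on 6 libraries of 3 colorectal cancer lines, and 4 of them were used for the comparison, grouped by the cell line label with hairpin as a block. Per the submitters' processing notes, bcl2fastq 2.17, STAR 2.5.2b and DESeq were used on GRCh38; which counter, annotation or strand setting was applied is not given in these sources. The deposited table holds a normalised signal per gene and library, which the values show to be read counts divided by a size factor set per line. Divided by the step of its column, 100% of values were whole to within 0.1 read. Every gene listed in a line had at least 21 reads over its 2 libraries, and other genes were blank. Reads of blank genes are not given, nor is the reason for a blank.

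Of 13040 identifiers, 19 repeated ones were left out, and 11082 of the remaining 13021 were listed in both lines. Symbols were found for 13003 identifiers and GENCODE 29 entries for 13018. Recovered reads were scaled by TMM over the 4 libraries (edgeR 4.0.16) and tested with limma 3.58.1 in R 4.3.3 on log2(CPM + 1) with an intensity trend, two-sided, with Benjamini-Hochberg adjustment over all genes. The filter, a CPM of at least 1 in at least 2 libraries, removed 0 genes. The fit had 1 residual and a median of 9.26 prior degrees of freedom. The hairpin responses of the 2 lines correlated at 0.39 across genes, which is the check of the block; the shared number is the hairpin itself. Depth limits precision, and PCR reads without molecular identifiers are not independent.

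Named genes were the 15 protein-coding genes of largest difference in each direction with adjusted p under 0.05, a CPM of at least 10 in both libraries of the higher line and the same sign under both hairpins, the 10 of highest mean CPM listed in 1 line only, and the leading members of 17 gene lists and 6 marker lists. Genes with opposite differences were named after their values were seen. Some genes that the rule names, and 1 list, are not reported here. The members and lists were chosen with earlier results of these data known. Alternatives covered scaling, filter, pseudocount, block, tool (edgeR, DESeq2 1.42.0, limma-voom), samples, and GC content with transcript length.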

Additional observations from a re-analysis of the deposited data

Results flagged for a closer look

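Of the 11082 tested genes, 16 were at least 2-fold apart between HT29 and the libraries labelled SW480 in opposite directions under the 2 hairpins, and this is why they were singled out. With 1 library per line and hairpin, the difference between hairpins was not tested for any of them. Under the control hairpin 13 of the 16 were higher and 3 lower in HT29. The 3 that were lower under the control hairpin were TNC, an extracellular matrix glycoprotein, NKD1, a Wnt antagonist, and DNTTIP1.

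RIGI and IFIH1, sensors of viral RNA, had 28.6 and 18.1 CPM in HT29 and 89.9 and 43.4 CPM in the SW480-labelled library under the BZW2 hairpin. Under the control hairpin they had 176 and 110.4 CPM in HT29 and 41.4 and 19.5 CPM in the SW480-labelled library. SAMD9 had 40.6 CPM in HT29 and 120.4 CPM in the SW480-labelled library under the BZW2 hairpin, and 564 and 35.5 CPM under the control hairpin. DDX60, USP18, IFIT5 and SP110, also known as interferon-induced, and AKAP9, LIG4 and ZNF441 had the same pattern. NKD1 had 37.5 CPM in HT29 and 11.96 CPM in the SW480-labelled library under the BZW2 hairpin, and 9.54 and 32.3 CPM under the control hairpin.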

How the results depend on the processing

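With hairpin left out as a block, 821 genes were higher and 893 lower in HT29, all of them among those called with it, and 117 in place of 183 list members passed. A shared estimate of spread over all 6 libraries left 175 higher and 270 lower genes and 47 list members. The deposited values without rescaling moved the median of all genes to 0.66 and gave 4902 higher and 813 lower genes. Leaving out each library in turn, with line as the only term, gave 523 to 687 higher genes, 629 to 837 lower genes and 101 to 115 list members. No gene called in both fits changed sign under these or the other settings tried: DESeq2 factors, library size alone, another filter or pseudocount, edgeR, DESeq2, limma-voom, and GC content with length. DESeq2 called 1330 higher and 1314 lower genes, and GC and length correction 2203 and 1993. The control hairpin pair alone had 1378 genes at least 2-fold higher and 1572 lower, and the BZW2 hairpin pair alone 1492 and 1567. A pseudocount of 0.25 gave 27 in place of 16 genes with opposite differences. BZW2 lay between −1.10 and 2.35 with 1 library left out. Of the 30 genes named by size, 30 stayed called under every setting except that over all 6 libraries, where 27 had a value and 27 were called. Among all 132 genes followed for the text, 22 to 32 lost their call with 1 library left out, 18 without the block, 5 with DESeq2, 8 with the deposited values, and 56 of 126 over all 6 libraries; ELF3 also lost it under library size alone and with edgeR. At a bound of 4-fold, 31 of the HT29-only genes remained.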
